A study of Homo sapiens with 16 samples.

Results

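The 33 genes described here make sterols and fatty acids, sense sterols or export them. They were chosen by symbol from the 60669 genes of the deposited count table, and all 33 symbols were found. By role they comprise 7 genes of the mevalonate pathway, 11 genes that turn farnesyl units into cholesterol by way of squalene, 4 genes of sterol sensing and transport, 8 genes of fatty acid synthesis and desaturation, and 3 genes of sterol export or induced by the liver X receptor (LXR). In all, 32 of the 33 had enough counts to be tested. The exporter ABCG1 had between 0 and 5 counts in any library and was left out of the tests. The cells were MOLM-13, an established human line of acute myeloid leukaemia, kept for 4 days under 4 treatments with 4 libraries each. The control group received 0.005% DMSO, the solvent. A second group received 1 µM of an inhibitor of EZH2 (EZH2i), the catalytic subunit of the polycomb complex that methylates histone H3, and the next received 1 µM of an inhibitor of PRMT5 (PRMT5i), an arginine methyltransferase. The combination group received both inhibitors. The labels name neither compound and do not say whether replicates came from separate cultures, so p-values measure only the spread between these libraries, which may be technical. All libraries come from a single cell line grown in culture medium with serum.

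Cells build cholesterol from acetyl-CoA through mevalonate and farnesyl pyrophosphate, which is also the source of isoprenoids that anchor proteins to membranes. The transcription factors SREBP-2 (gene SREBF2) and SREBP-1 (SREBF1) drive the sterol and the fatty acid branches. They are held in the endoplasmic reticulum by SCAP and INSIG proteins while sterols are plentiful, and are cut free when sterols run low. LXR is activated by oxidised sterols and induces the exporters ABCA1 and ABCG1, the ubiquitin ligase MYLIP and also SREBF1.

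Promoter sequences of 6 members that passed a test below, and of SREBF2, which passed in none and holds the full sterol element core, are shown here for the short motifs known to sit together in promoters read by SREBP: a sterol element core, the box CCAAT bound by NF-Y and the box GGGCGG bound by Sp1. RefSeq windows (build GRCh38.p14) from 250 bases before to 50 bases after the start were at hand for 28 of the 33 genes. The first 4 sequences are upstream bases that lie in no annotated exon of the gene. Capitals mark motif matches on either strand. The SREBF2 stretch (chr22:41832929-41833078, plus strand) holds the sterol element core TCACNCCAC and a CCAAT box. The MVD stretch (chr16:88663162-88663311, minus strand) holds 3 CCAAT boxes and 1 GGGCGG box. The FDPS stretch (chr1:155308616-155308747, plus strand) holds 1 CCAAT box, and the FADS1 stretch (chr11:61817198-61817253, minus strand) holds 2 GGGCGG boxes.
SREBF2: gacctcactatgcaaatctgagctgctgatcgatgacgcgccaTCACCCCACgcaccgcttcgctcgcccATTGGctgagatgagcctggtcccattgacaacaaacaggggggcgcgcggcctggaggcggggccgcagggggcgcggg
MVD: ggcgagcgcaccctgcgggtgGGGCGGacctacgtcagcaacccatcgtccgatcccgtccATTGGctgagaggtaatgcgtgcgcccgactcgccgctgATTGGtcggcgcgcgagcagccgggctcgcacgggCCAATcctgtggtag
FDPS: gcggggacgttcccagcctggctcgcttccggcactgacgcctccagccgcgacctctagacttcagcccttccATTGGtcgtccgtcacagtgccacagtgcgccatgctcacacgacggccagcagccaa
FADS1: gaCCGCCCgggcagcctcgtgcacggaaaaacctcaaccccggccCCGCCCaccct

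Another 3 sites of 30 bases show a match and its surroundings in genes whose annotated exons reach further upstream. They are a CCAAT box of EBP (chrX:48521766-48521795, plus strand), a shorter sterol core CACNCCAC of SCD (chr10:100347108-100347137, plus strand) and a pattern like the LXR direct repeat of ABCA1 (chr9:104928202-104928231, minus strand), read as AGGTNA, then 5 bases of any kind, then GGTCA.
EBP: cttcgcttcaccATTGGctcgctccgtaag
SCD: gcagaggccggGTGGTGTGgtgtcggtgtc
ABCA1: caggcttTGACCGATAGTAACCTctgcgct

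Across the 28 members with a window, the full core TCACNCCAC was found in 1 (SREBF2, 3.57%), against 1.50% of the tested genes with a window. The shorter core, which the full core contains and which was searched after the full core had been counted, was found in 7 of 28 (25.0%), against 7.89% of tested genes. Those 7 were ABCA1, ACACA, IDI1, INSIG1, SC5D, SCD and SREBF2. A CCAAT box was present in 22 of 28 (78.6%), against 43.0%, and GGGCGG in 27 of 28 (96.4%), against 74.8%. The direct repeat pattern was written after the ABCA1 window had been read. It occurred in that window alone among the members and in 0.0890% of tested genes. Both strands were searched throughout. A match is a run of letters and not a measured binding site.

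The libraries held 31142456 to 52885899 expected counts. All 8 myeloid markers were detected in every group. Their summed level was 1568 to 2183 CPM (counts per 1000000) in DMSO, 1497 to 1675 CPM with EZH2i, 2433 to 2730 CPM with PRMT5i and 2067 to 2233 CPM in the combination, so that the PRMT5i libraries were above all others. ITGAM, an integrin of mature myeloid cells, had a mean of 25.2 CPM in DMSO, 32.3 CPM with EZH2i, 70.0 CPM with PRMT5i and 66.2 CPM in the combination. FLT3, a receptor of early myeloid cells, was at 697, 491, 999 and 836 CPM in the same order, and CSF1R, a receptor of monocytes, at 14.8, 23.3, 35.6 and 29.6 CPM. CD33, SPI1 and LYZ also had higher means with PRMT5i than in DMSO, with LYZ at 655 CPM in DMSO and 953 CPM with PRMT5i. FLT3 and LYZ, the most abundant markers, led the sum. CEBPA and MPO did not rise with PRMT5i. CEBPA had means of 330, 301, 312 and 278 CPM in the same order. MPO had a mean of 15.7 CPM in DMSO and 15.0 CPM with PRMT5i, and its EZH2i libraries were at 24.9 to 33.4 CPM. The part of these marker differences in the lipid gene results was not tested. Among markers of other tissues, the 4 hepatocyte and adipocyte markers had at most 3 counts in any library. The epithelial marker KRT8 was detected, at a mean of 1.61 CPM in DMSO, 2.69 CPM with EZH2i, 2.97 CPM with PRMT5i and 3.74 CPM in the combination. Of the markers of other blood cells, CD2 was at 0 counts in all libraries, while NKG7 was detected in DMSO at 18.5 to 26.2 CPM. CD3D was detected as well, at a mean of 4.19 CPM in DMSO, 7.14 CPM with EZH2i, 1.94 CPM with PRMT5i and 3.92 CPM in the combination. The mRNA levels of the inhibitors' targets do not measure enzyme inhibition. PRMT5 had a mean of 116 CPM in DMSO and 119 CPM with PRMT5i. EZH2 had a mean of 37.6 CPM in DMSO, 48.3 CPM with EZH2i and 24.8 CPM with PRMT5i. The difference between PRMT5i and DMSO passed the test (log2 fold change -0.60, edgeR quasi-likelihood adjusted p = 0.00659), although the groups overlapped. The DMSO libraries were at 21.5, 42.5, 43.8 and 42.4 CPM, so replicate 1 lay below all PRMT5i libraries (23.0 to 26.2 CPM). In these bulk libraries, a lower level in every cell cannot be told apart from fewer cells that express a gene.

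Some libraries of the same treatment stood apart, for these genes as for all genes. DMSO replicate 1 had 1.70% of its counts from the mitochondrial genome, against 0.213% to 0.518% in the other DMSO libraries. Its scaling factor (TMM) was 0.861, against 0.959 to 1.03. Over tested genes, the chi-square per degree of freedom of its counts against the other DMSO libraries was 206 to 278. Among those other libraries it was 14.0 to 88.2. The median SD of log2 CPM between replicates over the 32 members was 0.268 in DMSO and 0.163 with EZH2i, against 0.113 with PRMT5i and 0.105 with both inhibitors. Over all tested genes it was 0.280, 0.219, 0.132 and 0.137 in the same order. Between DMSO replicates 1 and 2 the members differed by a log2 ratio from -2.02 (PMVK) to 1.60 (STARD4). That ratio followed the GC content of the transcript (Pearson's r = -0.729 across the 32 genes, which are not independent replicates, and -0.477 across all genes with a value). Genes with AT-rich transcripts such as STARD4, MSMO1, IDI1 and SC5D were higher in replicate 1, and GC-rich ones such as PMVK, TM7SF2 and FASN were higher in replicate 2. The relation had the opposite sign between EZH2i replicates 1 and 4 (r = 0.870 across the members and 0.510 across all genes). Between PRMT5i replicates 1 and 4 it was -0.0194, and between the same replicates of the combination 0.0373. The comparison of EZH2i with DMSO rests on the libraries that stood apart, and its counts are given without them below.

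**Figure D1:**
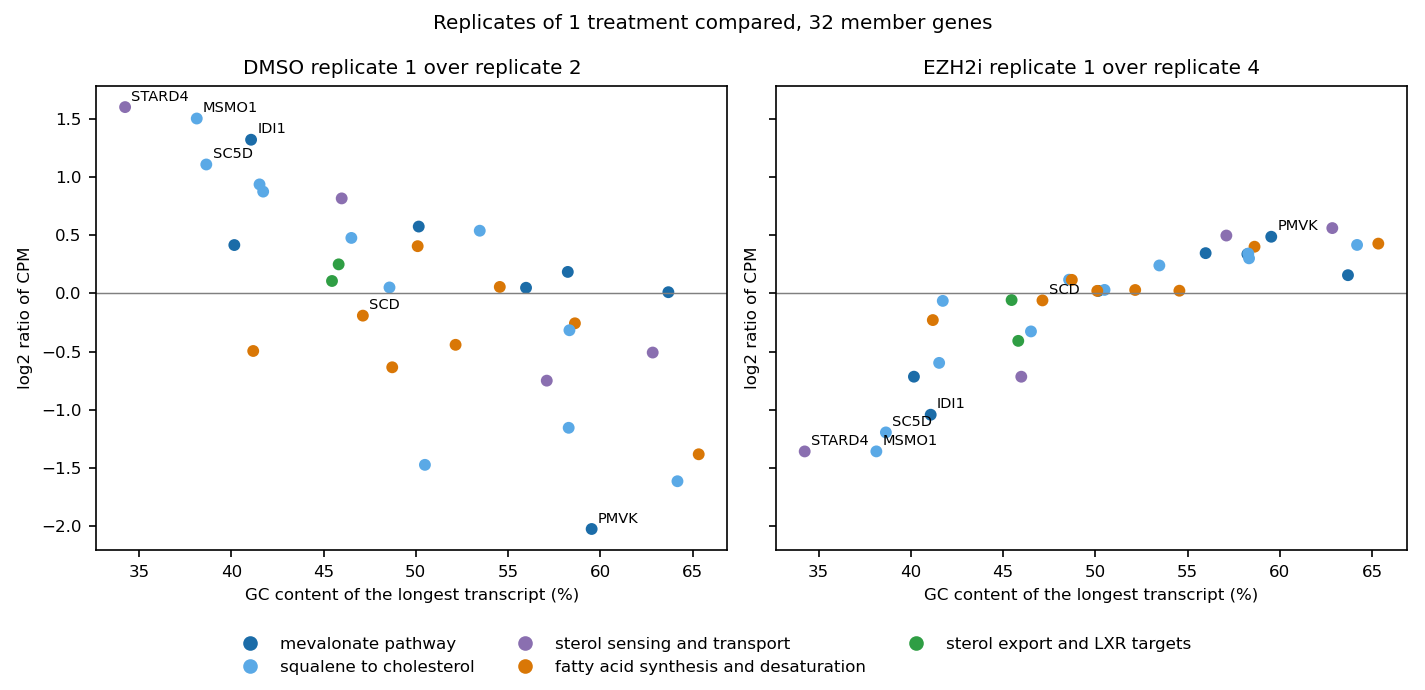
Ratio of the CPM of each of the 32 tested genes between 2 libraries of the same treatment (log2, vertical axis) against the GC content of its longest transcript (percent, horizontal axis), each point 1 gene coloured by role. In DMSO the ratio of replicate 1 to replicate 2 runs from 1.60 for AT-rich STARD4 to -2.02 for GC-rich PMVK, and with EZH2i the ratio of replicate 1 to replicate 4 runs the other way.

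Levels per kilobase of exon were compared in DMSO. SCD, which makes oleic from stearic acid, was highest at a mean of 156 CPM per kilobase. INSIG1 followed at 116, FDFT1 (squalene synthase) at 97.2 and ACLY, which makes cytosolic acetyl-CoA from citrate, at 63.4. Among the tested members ABCA1 was lowest at 0.941 CPM per kilobase.

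Summed over the 8 fatty acid genes, the level was 1993 ± 271 CPM in DMSO, 2727 ± 138 CPM with EZH2i, 1359 ± 50.2 CPM with PRMT5i and 1843 ± 29.2 CPM in the combination (SD, n = 4 libraries). The 4 EZH2i libraries were the highest and the 4 PRMT5i libraries the lowest, while the combination lay inside the DMSO range. The 7 mevalonate genes summed to 645 ± 77.2 CPM in DMSO, 798 ± 61.3 CPM with EZH2i, 473 ± 48.6 CPM with PRMT5i and 562 ± 53.1 CPM in the combination. The lowest EZH2i library (739 CPM) was below the highest DMSO library (743 CPM), and combination and DMSO libraries also overlapped. For the 11 later sterol genes the sums were 1268 ± 136, 1474 ± 75.4, 1134 ± 76.5 and 1273 ± 66.4 CPM in the same order. There the DMSO libraries overlapped with those of each other group. These sums are led by the most abundant genes, such as SCD and FDFT1, and are given as a description.

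The first question was what EZH2 inhibition alone does to these genes. EZH2i raised 10 of the 32 tested genes and lowered 0 (edgeR quasi-likelihood test, Benjamini-Hochberg adjusted p under 0.05 over 16555 genes). In the same comparison 7.60% of all tested genes passed the threshold, with 4.11% higher and 3.49% lower. The median log2 fold change of the 32 genes was 0.27, against -0.01 for all tested genes, and 31 of the 32 values were above 0. The genes that rose were HMGCS1, MVD and FDPS of the mevalonate pathway, LSS and DHCR7 of the later sterol pathway, ACSS2, SCD and FADS2 of the fatty acid branch, and the LXR targets ABCA1 and MYLIP. Of the 4 sensing and transport genes 0 passed by this test, with log2 fold changes from 0.07 to 0.36. The count of 0 lower was also 0 at an unadjusted p under 0.05 and 0 with DESeq2.

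ACSS2, which makes acetyl-CoA from acetate, had the smallest p of these. It was at 64.8, 62.3, 61.4 and 66.9 CPM in the DMSO replicates and at 92.6, 85.5, 92.5 and 91.1 CPM with EZH2i, so that the groups lay well apart. Its log2 fold change was 0.50 (SE 0.07, adjusted p = 6.73e-04 by the edgeR quasi-likelihood test). SCD was at 809.9, 925, 813 and 805 CPM in DMSO and at 1171, 1133, 1117 and 1220.5 CPM with EZH2i. All EZH2i libraries were above all DMSO libraries, and the log2 fold change was 0.47 (SE 0.07, adjusted p = 8.80e-04, edgeR). FADS2, the delta-6 desaturase of polyunsaturated fatty acids, had the largest change, 0.81 (SE 0.15, adjusted p = 0.00435, edgeR). Its DMSO libraries held 103, 123, 79.8 and 83.1 CPM and its EZH2i libraries 206, 173, 146 and 156 CPM.

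In the sterol branch the changes were of similar size and less certain. LSS, which closes the ring of lanosterol, was at 30.0, 66.8, 57.3 and 46.9 CPM in DMSO and at 88.2, 76.8, 79.8 and 69.5 CPM with EZH2i (log2 fold change 0.65, SE 0.17, edgeR adjusted p = 0.0299). The groups did not overlap, but the DMSO values differed among themselves by more than the EZH2i values. DHCR7, which carries out the last step of cholesterol synthesis from 7-dehydrocholesterol, was at 67.7, 84.3, 69.3 and 66.3 CPM in DMSO and at 116, 95.9, 101 and 94.5 CPM with EZH2i (0.51, SE 0.10, edgeR adjusted p = 0.00578). HMGCS1, which makes HMG-CoA, changed by 0.51 with an adjusted p of 0.0399 and MVD, the mevalonate pyrophosphate decarboxylase, by 0.38 with an adjusted p of 0.0484, both close to the threshold of the edgeR test. With EZH2i MVD was at 46.0, 49.1, 45.9 and 41.3 CPM, above DMSO at 34.5 to 36.0 CPM. FDPS, the farnesyl pyrophosphate synthase, was at 265, 249, 218 and 209 CPM, above DMSO at 157 to 191 CPM (0.42, edgeR adjusted p = 0.0334). FASN, the fatty acid synthase, did not pass: its DMSO libraries ranged from 215 to 559 CPM and its EZH2i libraries from 499 to 671 CPM (log2 fold change 0.61, SE 0.20, edgeR adjusted p = 0.0729).

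ABCA1 and MYLIP, both induced by LXR, rose as well. ABCA1, which loads cholesterol onto apolipoproteins, was at 11.6, 10.8, 11.0 and 9.33 CPM in DMSO and at 14.2, 15.4, 15.8 and 14.8 CPM with EZH2i (0.50, SE 0.10, edgeR adjusted p = 0.00837). MYLIP was at 63.5, 53.4, 68.7 and 69.9 CPM in DMSO and at 73.2, 78.3, 86.4 and 97.1 CPM with EZH2i (0.39, SE 0.10, edgeR adjusted p = 0.0263). In both genes all EZH2i libraries lay above all DMSO libraries. SREBF1, also induced by LXR, did not pass (0.26, edgeR adjusted p = 0.236). Of 6 LXR receptors and further LXR targets 0 passed the edgeR test (2 at an unadjusted p under 0.05), with log2 fold changes from -0.06 to 0.36. At that unadjusted p 4467 of all 16555 tested genes passed.

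The count of 10 depended on the libraries used. Leaving out DMSO replicate 2 raised it to 17, leaving out DMSO replicate 1 or EZH2i replicate 1 lowered it to 7, it was 8 without EZH2i replicate 4, and it was 6 without DMSO replicate 4, EZH2i replicate 2 or EZH2i replicate 3. A fit to these 8 libraries alone left only ACSS2, where 0.874% of all genes passed. The log2 fold changes of the members in this comparison also varied with GC content (r = 0.532 across 32 genes, 0.173 across all genes with a value). The part of GC content in the result was not tested beyond the fit with a GC offset. In that fit 12 members were higher and 0 lower. Over all tested genes it called 1318 higher and 1782 lower, against 681 and 578 in the main fit. MVD and FDPS were not among those 12. ACSS2, SCD, FADS2, DHCR7 and ABCA1 passed in each of the 16 fits that left out a single library. The call of MVD was lost in 12 of these fits and that of HMGCS1 in 11, while LSS and FDPS each lost theirs in 4 and MYLIP in 3. HMGCS1 also did not pass with a replicate block, MVD with RLE factors, and MVD, FDPS and MYLIP without the filter on low counts.

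**Figure D2:**
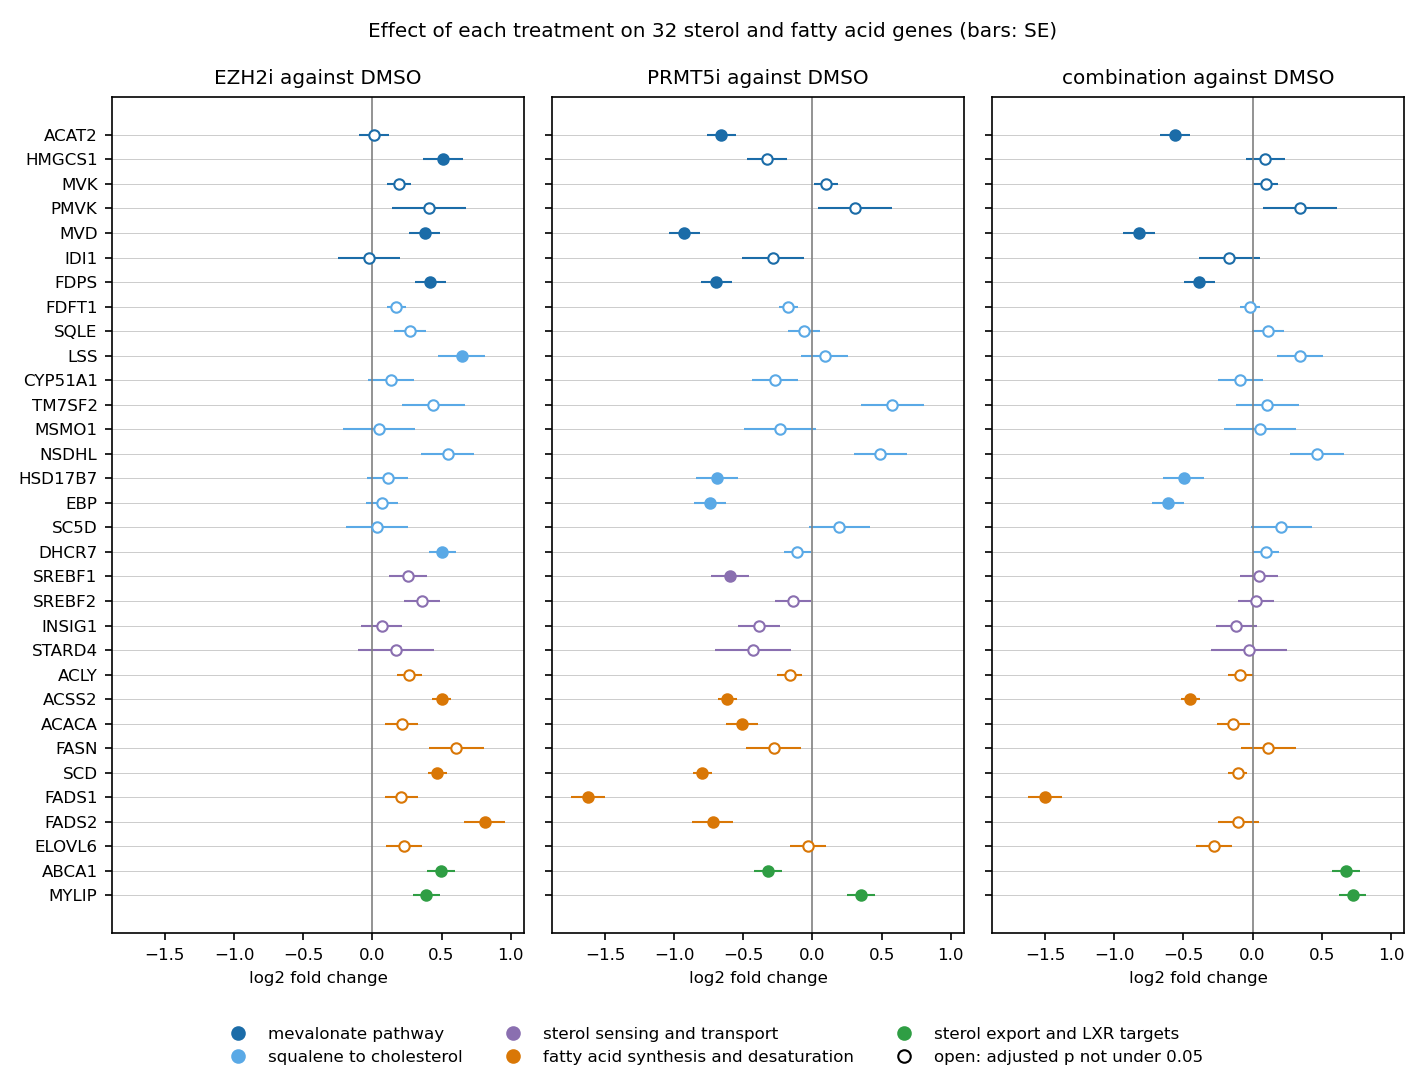
Log2 fold change (horizontal axis) of the 32 tested genes in each treatment against DMSO, points with bars of 1 SE, coloured by role, and open where the adjusted p was not under 0.05. Filled points lie above 0 for 10 genes with EZH2i, below 0 for 12 genes with PRMT5i, and only ABCA1 and MYLIP are filled above 0 in the combination.

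The effect of PRMT5 inhibition alone was measured against the same DMSO libraries. With PRMT5i, 12 of the 32 genes fell and 1 rose (edgeR quasi-likelihood test, adjusted p under 0.05). Of all tested genes 35.3% passed in this comparison, with 17.1% higher and 18.3% lower. The median of the 32 log2 fold changes was -0.28, against 0.00 for all tested genes. The genes that fell were ACAT2, MVD and FDPS of the mevalonate pathway, HSD17B7 and EBP of the later sterol pathway, SREBF1, the fatty acid genes ACSS2, ACACA, SCD, FADS1 and FADS2, and ABCA1. MYLIP rose. In all 13 the groups of 4 libraries did not overlap. The share of all tested genes without overlap is not given here, so this is a description only.

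FADS1, the delta-5 desaturase (chr11:61799625-61829318, minus strand, GENCODE release 29), changed most. It was at 114, 86.3, 77.8 and 85.6 CPM in DMSO and at 33.7, 30.6, 26.9 and 26.9 CPM with PRMT5i, a level 0.325 times that in DMSO (log2 fold change -1.62, SE 0.12, edgeR adjusted p = 5.40e-08). Its neighbour on chromosome 11, FADS2, was at 69.0, 67.1, 51.6 and 47.9 CPM with PRMT5i, below the DMSO range of 79.8 to 123 CPM (-0.72, SE 0.15, edgeR adjusted p = 0.00118). The exons of FADS1 and FADS2 overlap by under 5% on opposite strands, and the sources used here do not say whether the counting used strand. SCD was at 479, 499, 476 and 476 CPM with PRMT5i, so the 4 libraries were close together and far below DMSO (-0.80, SE 0.07, edgeR adjusted p = 1.87e-07). ACSS2 was at 42.7, 42.6, 42.4 and 39.0 CPM (-0.62, SE 0.07, edgeR adjusted p = 3.14e-06), and ACACA, the acetyl-CoA carboxylase that commits carbon to fatty acids, at 111, 123, 128 and 127 CPM against 145 to 226 CPM in DMSO (-0.51, edgeR adjusted p = 0.00280).

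Among the sterol genes MVD was at 20.5, 19.0, 19.2 and 15.0 CPM with PRMT5i, against 35.1, 34.8, 36.0 and 34.5 CPM in DMSO. This was the largest fall of a mevalonate gene (-0.93, SE 0.11, edgeR adjusted p = 7.57e-06). FDPS was at 123, 121, 96.4 and 95.5 CPM, against 191, 184, 157 and 172 CPM in DMSO (-0.69, edgeR adjusted p = 1.38e-04). EBP, the sterol isomerase, was at 42.4, 41.6, 36.6 and 38.0 CPM, below the DMSO libraries at 85.6, 59.0, 55.2 and 65.0 CPM (-0.74, edgeR adjusted p = 9.32e-05). ACAT2, which joins acetyl-CoA units, changed by -0.66 and HSD17B7, a sterol ketone reductase, by -0.69 (edgeR adjusted p = 1.37e-04 and 0.00188). Of the exon bases of ACAT2, 33.9% are shared with an antisense transcript, FDPS has 8 pseudogene copies by name and HSD17B7 has 2, so these 3 values are uncertain to that extent. CYP51A1, which passed in no comparison, shares 79.4% of its exon bases with a transcript on the same strand.

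Of the 11 genes from squalene onward, 2 fell, and the log2 fold changes of the others ranged from -0.27 (CYP51A1) to 0.58 (TM7SF2), where neither end passed (edgeR adjusted p = 0.216 and 0.0586). SREBF1 was at 84.1, 83.8, 88.0 and 81.6 CPM with PRMT5i, below the DMSO libraries at 106, 151, 132 and 121 CPM (-0.59, SE 0.14, edgeR adjusted p = 0.00281). SREBF2 was at 117 to 126 CPM with PRMT5i and at 108 to 181 CPM in DMSO (-0.14, edgeR adjusted p = 0.428). The groups overlapped for SREBF2 and not for SREBF1. The difference between these 2 genes was not tested. INSIG1, itself induced by SREBP, had a log2 fold change of -0.39 that narrowly missed the threshold (edgeR adjusted p = 0.0538).

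ABCA1 and MYLIP went in different directions. ABCA1 was at 8.62, 8.46, 7.96 and 9.12 CPM with PRMT5i, all below the lowest DMSO library at 9.33 CPM (-0.32, SE 0.10, edgeR adjusted p = 0.0209), and this call was lost without PRMT5i replicate 3. MYLIP was at 78.3, 76.9, 84.7 and 85.8 CPM with PRMT5i, above the highest DMSO library at 69.9 CPM (0.35, SE 0.10, edgeR adjusted p = 0.0114). Without DMSO replicate 2 the counts were 17 lower and 4 higher, and without DMSO replicate 3 the higher count was 2. How the share of all tested genes changed in these fits is not given here.

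**Figure D3:**
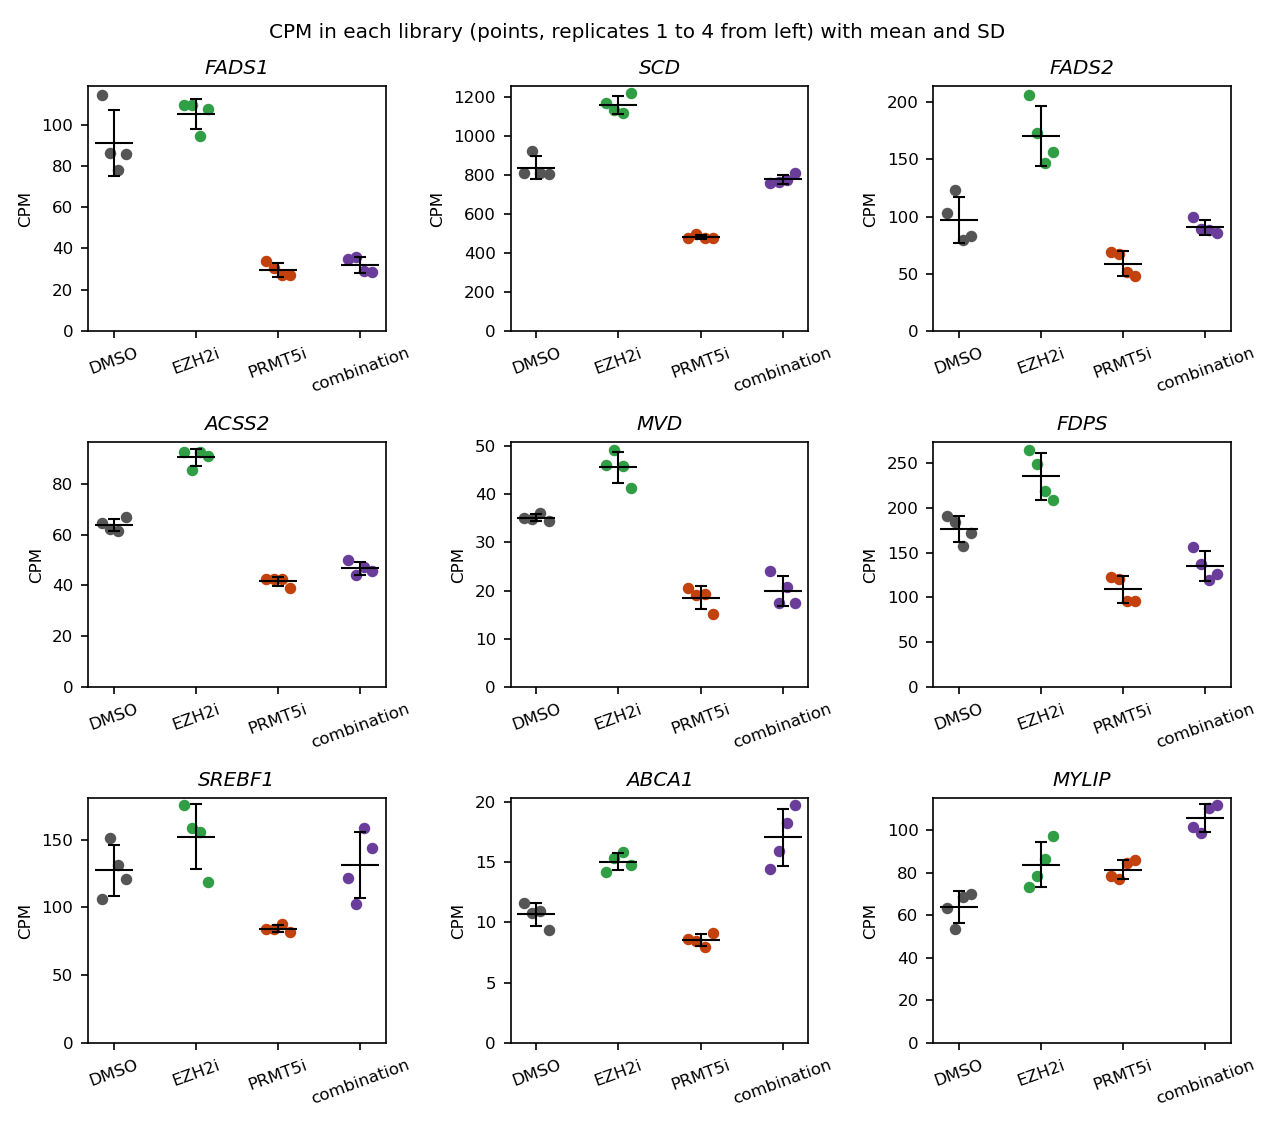
CPM (vertical axis, from 0) of 9 member genes in each library of the 4 treatments, with points for replicates 1 to 4 and the mean with its SD. FADS1, MVD and ACSS2 are low in both groups that received PRMT5i, SCD and FADS2 lie near the DMSO range in the combination, and ABCA1 and MYLIP are highest on average in the combination.

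The combination was set against DMSO, which asks what both inhibitors together do. In it 2 of the 32 genes rose and 7 fell, where 36.2% of all tested genes passed with 17.6% higher and 18.5% lower. The median log2 fold change was -0.02, against 0.00 for all tested genes. The genes that fell were ACAT2, MVD, FDPS, HSD17B7, EBP, ACSS2 and FADS1, and ABCA1 and MYLIP rose. Of the 6 LXR receptors and further LXR targets 0 passed the edgeR test (2 at an unadjusted p under 0.05), with log2 fold changes from -0.01 to 0.41. At that unadjusted p 7541 of all 16555 tested genes passed. This comparison shares the DMSO libraries with the comparisons above. FADS1 was at 34.7, 36.0, 29.2 and 28.4 CPM, all far below DMSO (-1.50, SE 0.12, edgeR adjusted p = 2.05e-07). MVD was at 24.0, 17.4, 20.7 and 17.4 CPM (-0.82, edgeR adjusted p = 3.11e-05) and ACSS2 at 49.9, 43.9, 47.4 and 45.7 CPM (-0.45, edgeR adjusted p = 8.86e-05). These stayed low in every library.

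Other genes that PRMT5i alone lowered were near the control level in the combination. SCD was at 760.3, 763, 777 and 811 CPM, with the highest of these inside the DMSO range (log2 fold change -0.11, SE 0.07, edgeR adjusted p = 0.232). FADS2 was at 99.7, 88.8, 88.0 and 85.3 CPM (-0.10, SE 0.15, edgeR adjusted p = 0.624), all within the DMSO range. SREBF1 was at 122, 103, 158 and 144 CPM, a range that reaches past DMSO on both sides (0.05, SE 0.14, edgeR adjusted p = 0.819). ABCA1 was at 14.4, 15.9, 18.2 and 19.7 CPM, above all DMSO libraries (0.68, SE 0.10, edgeR adjusted p = 6.97e-05), and MYLIP at 101, 98.5, 110.2 and 112 CPM (0.72, SE 0.10, edgeR adjusted p = 3.42e-05). The count of higher genes was 5 without DMSO replicate 2, a fit whose share of all tested genes is not given here. With a GC offset it was 4, where 3666 of all tested genes were higher, against 2920 in the main fit. HSD17B7 passed although its groups overlapped, with 11.8 to 13.6 CPM in the combination and 13.5 to 24.8 CPM in DMSO.

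The comparison of the combination with PRMT5i alone had 5 of the 32 genes higher and 0 lower (edgeR). In it 4.16% of all tested genes passed, 2.91% higher and 1.24% lower. The lower count was also 0 at an unadjusted p under 0.05 and with DESeq2. The 5 were SREBF1, SCD, FADS2, ABCA1 and MYLIP, and none was an enzyme of the sterol pathway. Of the 6 LXR receptors and further LXR targets 0 passed the edgeR test (0 at an unadjusted p under 0.05), and all 6 values were below 0 (-0.23 to -0.02). At that unadjusted p 2632 of all 16555 tested genes passed. ABCA1 rose by the largest step (log2 fold change 1.00, SE 0.10, edgeR adjusted p = 1.05e-04). SCD changed by 0.69 (SE 0.07, edgeR adjusted p = 1.03e-04), from 476 to 499 CPM with PRMT5i to 760.3 to 811 CPM in the combination. SREBF1 changed by 0.64 (SE 0.14, edgeR adjusted p = 0.0138) and FADS2 by 0.62 (SE 0.15, edgeR adjusted p = 0.0266). The SREBF1 call was lost without PRMT5i replicate 4. That of FADS2 was lost without PRMT5i replicate 3 or 4 or without combination replicate 1 or 2. For MYLIP the change was 0.37 (edgeR adjusted p = 0.0439), and the call was lost in 12 of the 16 fits that left out a library. The count of 5 was 2 without PRMT5i replicate 4, and 3 without PRMT5i replicate 3, combination replicate 1 or combination replicate 2. Shares of all tested genes without these libraries are not given here. With a GC offset it was 9, where 824 of all tested genes were higher, against 482 in the main fit. A fit to the 8 libraries alone gave 12 higher and 1 lower, where 13.3% of all genes passed. In that smaller fit HMGCS1, FDFT1, LSS, INSIG1, STARD4, ACACA and FASN joined the genes that rose, and TM7SF2 was the gene that fell.

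Compared with EZH2i alone, the combination had 15 of the 32 genes lower and 1 higher. Of all tested genes 28.0% passed, 13.4% higher and 14.6% lower. The median log2 fold change was -0.33. In the fatty acid class 7 of 8 genes fell: ACLY, ACSS2, ACACA, SCD, FADS1, FADS2 and ELOVL6, an elongase. FASN did not pass (-0.49, SE 0.20, edgeR adjusted p = 0.0766). In the mevalonate class 4 of 7 fell (ACAT2, HMGCS1, MVD and FDPS), in the later sterol class 4 of 11 (FDFT1, HSD17B7, EBP and DHCR7) and in the sensing and transport class 0 of 4, where the edgeR log2 fold changes ran from -0.33 to -0.18. FADS1 was at 109, 109, 94.5 and 108 CPM with EZH2i alone, and it again changed most (-1.71, SE 0.12, edgeR adjusted p = 7.95e-08), and MVD was next (-1.20, SE 0.11, edgeR adjusted p = 1.05e-06). ACSS2 changed by -0.95 (SE 0.07, edgeR adjusted p = 8.64e-08), a level 0.517 times that with EZH2i alone. MYLIP was the gene that rose (0.33, edgeR adjusted p = 0.0191), a call lost without EZH2i replicate 1 or 2 or without combination replicate 3 or 4. FDFT1 (-0.19), ACACA (-0.35) and HMGCS1 (-0.42) fell by small amounts whose calls were lost in 12, 7 and 5 of the 16 fits without a library. HMGCS1 passed although its groups overlapped, with 169.6 to 215 CPM in the combination and 204 to 336 CPM with EZH2i.

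Each inhibitor's effect with and without the other can be compared in libraries that the comparisons do not share. For EZH2i, 27 of the 32 genes had a log2 fold change above 0 both against DMSO and on top of PRMT5i, and 0 were below 0 in both. Over all tested genes the sign was the same in 63.6%. For PRMT5i, 23 genes were below 0 in both settings and 2 above 0 in both, where 76.5% of all tested genes kept their sign. Across the 32 genes the values of the 2 settings had Pearson's r = 0.295 for EZH2i and 0.781 for PRMT5i, as a description over genes that share libraries and are not independent. Across all tested genes r was 0.337 and 0.746.

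**Figure D4:**
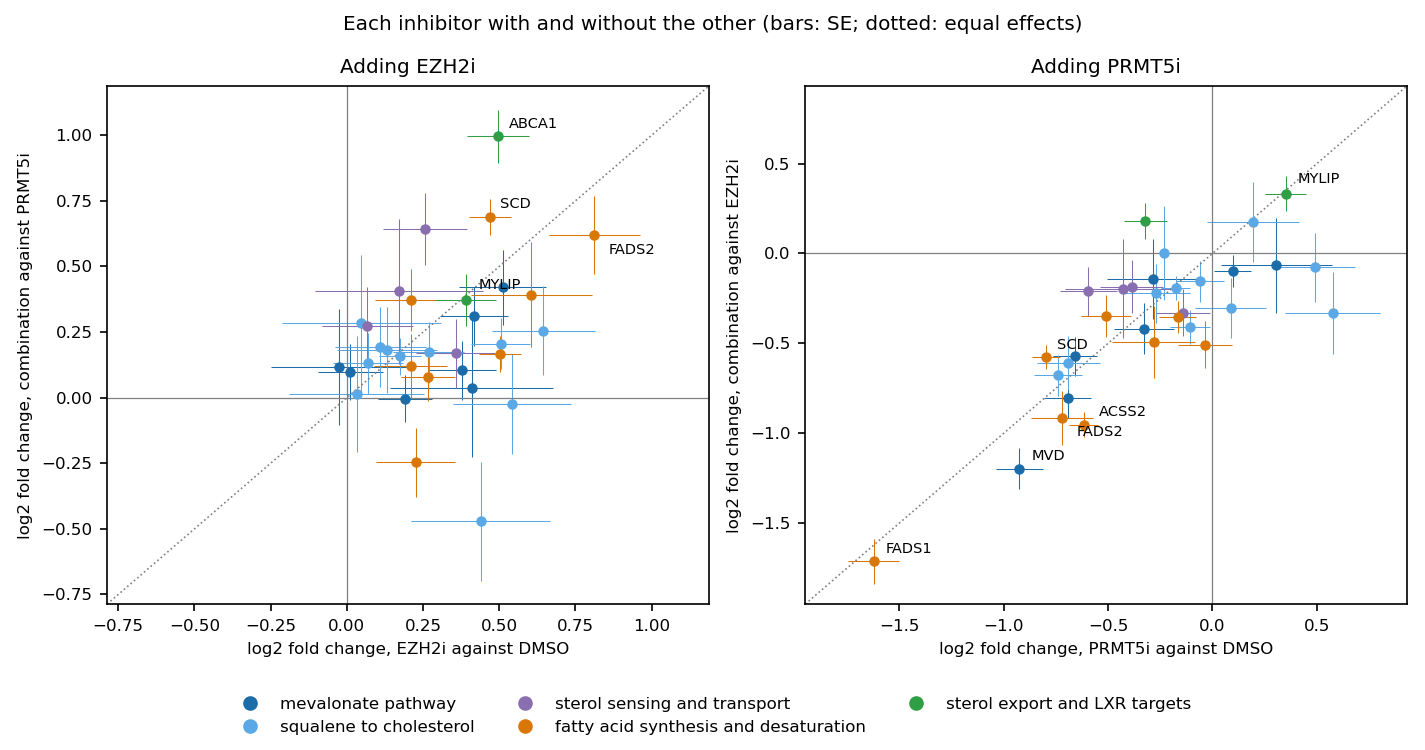
Log2 fold change of the 32 genes with an inhibitor in the absence (horizontal axis) and presence (vertical axis) of the other. EZH2i is at left and PRMT5i at right, with bars of 1 SE, a dotted line of equal effects and colours by role. At left 27 points lie above 0 on both axes, and at right 23 lie below 0 on both, with FADS1 at -1.62 and -1.71.

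The interaction asks whether EZH2i had another effect in PRMT5-inhibited cells than without PRMT5i. No member passed (edgeR quasi-likelihood test, 0 higher and 0 lower of 32, where 0.290% of all tested genes passed, 0.254% higher and 0.0362% lower). At an unadjusted p under 0.05 there were 2 higher and 4 lower, where 1489 of all 16555 tested genes passed. DESeq2 called 1, ACSS2, with a log2 difference of -0.33 and an adjusted p of 0.0286. For ABCA1 the rise with EZH2i was 0.50 without and 1.00 with PRMT5i, a difference of 0.50 (SE 0.14, edgeR adjusted p = 0.256). For TM7SF2, a sterol reductase, the difference was -0.91 (SE 0.32, edgeR adjusted p = 0.397), and for SREBF1 0.38 (SE 0.19, edgeR adjusted p = 0.570). The fit with a GC offset called 1 gene, SREBF1, at 0.54 with an adjusted p of 0.0348. The differences between effects with and without the other inhibitor were therefore not established for single members.

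Of the 32 tested genes 19 passed in at least 1 comparison and 13 in none by the edgeR test. The 13 were MVK, PMVK, IDI1, SQLE, CYP51A1, TM7SF2, MSMO1, NSDHL, SC5D, SREBF2, INSIG1, STARD4 and FASN. The most even of them was MVK, the mevalonate kinase, at 19.6 to 25.9 CPM over all 16 libraries. SQLE, the squalene epoxidase, ran from 195 to 314 CPM. Others ranged widely within the controls. IDI1, the isopentenyl pyrophosphate isomerase, had its lowest and highest values in DMSO replicates 2 and 1 (68.5 and 171 CPM), as had MSMO1, a sterol demethylase (44.7 and 127 CPM). PMVK, the phosphomevalonate kinase, had its extremes in the same libraries the other way round (5.91 CPM in replicate 1 and 24.2 CPM in replicate 2). STARD4, a carrier of cholesterol between membranes, was lowest in DMSO replicate 2 (36.4 CPM) and highest in EZH2i replicate 4 (128 CPM), and SC5D, a sterol desaturase, in the same libraries (16.3 and 40.3 CPM). In these last 5 genes the SE of the log2 fold change of EZH2i against DMSO was 0.22 to 0.28. Whether changes of the size seen in SCD or ACSS2 could have been detected in them was not tested.

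A further 43 genes of these pathways, in 5 lists, give the surroundings, and 42 were tested. With EZH2i 2 rose and 3 fell (11.9%), where 7.60% of all tested genes passed. ME1, the malic enzyme that supplies NADPH, fell most, from 6.32, 6.42, 4.90 and 6.85 CPM in DMSO to 3.01, 3.42, 3.07 and 3.19 CPM (-0.95, SE 0.14, edgeR adjusted p = 8.58e-04). LPIN1, a phosphatidate phosphatase, rose by 0.37, while ACSL1, which activates long-chain fatty acids, changed by -0.33 (edgeR adjusted p = 0.0103 and 0.0190). The third gene that fell, OXSM of mitochondrial fatty acid synthesis, changed by -0.41 (edgeR adjusted p = 0.0447) and shares 21.6% of its exon bases with NGLY1.

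With PRMT5i 7 of the 42 rose and 9 fell (38.1%), where 35.3% of all tested genes passed, 17.1% higher and 18.3% lower. Of the 6 other sterol and isoprenoid enzymes 5 fell, of which TMEM97, a sterol-regulated membrane protein, changed by -0.68, LBR, a nuclear membrane protein and sterol reductase, by -0.66 and COQ2 of ubiquinone synthesis by -0.37 (edgeR adjusted p = 4.13e-05, 0.00167 and 8.44e-04). MID1IP1, which activates acetyl-CoA carboxylase, had the largest change of the 42, from 113, 118, 107 and 98.1 CPM in DMSO to 52.8, 51.1, 45.8 and 44.1 CPM (-1.17, SE 0.11, edgeR adjusted p = 3.73e-07). Of the 6 genes of SREBP processing 1 fell, and of the 6 LXR receptors and further LXR targets 2 rose and 0 fell.

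The combination against DMSO gave 5 higher and 8 lower of the 42 (31%), where 36.2% of all tested genes passed. MID1IP1 (-0.98, edgeR adjusted p = 3.52e-06) and ACSL1 (0.55, edgeR adjusted p = 4.12e-05) had the smallest p. Against PRMT5i alone 1 rose, ACSL1 (0.31, edgeR adjusted p = 0.0338), and 1 fell, ME1 (-0.58, edgeR adjusted p = 0.0181). That was 4.76% of the 42, where 4.16% of all tested genes passed. Against EZH2i alone 3 rose and 10 fell (31%), where 28.0% of all tested genes passed. ACSL1 had the smallest p of these (0.88, SE 0.08, edgeR adjusted p = 5.49e-07). ACSL1 was at 166, 170.4, 169 and 180.3 CPM with EZH2i, lower than in DMSO at 237, 195, 202 and 225 CPM. In the combination it was at 318, 334, 295 and 312 CPM, higher than with PRMT5i at 273, 265, 239 and 242 CPM. ACSL1 was the 1 gene of the 42 (2.38%) whose interaction passed (0.63, SE 0.11, edgeR adjusted p = 0.0151), where 0.290% of all tested genes passed. That call did not survive leaving out DMSO replicate 4 or PRMT5i replicate 2, 3 or 4.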

How the data were processed

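RNA of 16 MOLM-13 libraries was sequenced paired-end. The values that the authors deposited are expected counts per gene from RSEM, made after alignment to GRCh38.p7 with STAR 2.5.3, per the submitters' processing notes. The RSEM version, annotation and strand setting are not given in the sources used here, and 12.0% of the values are not whole. Counts were rounded, filtered with filterByExpr by group (16555 genes kept), scaled by TMM and fitted with 4 group means in edgeR 4.0.16 (R 4.3.3) by quasi-likelihood, with Benjamini-Hochberg adjustment over all tested genes and a threshold of 0.05. CPM use TMM-scaled library sizes, log2 CPM use a prior count of 2, and SE come from the same model. Groups come from the labels, with 4 libraries each. Pairs of libraries of a group differed by a chi-square per degree of freedom of 8.57 or more over genes, so all were counted as separate samples.

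All members are named. Of the 5 further lists, up to 4 genes past the threshold with the smallest p are named per comparison, and OXSM was added after its values were seen to complete a count. Some genes of these lists are not reported here by name. The members and lists were chosen with earlier results of these data known. Gene overlaps, exon lengths and GC content come from GENCODE release 29, and promoters from RefSeq (GRCh38.p14). Alternatives were DESeq2 1.42.0, total counts or RLE factors in place of TMM, no filter, a replicate block, a term for replicates 1 and 2 against 3 and 4, a fit to the 2 groups compared, each library left out, and, added after the data were seen, a GC offset. ABCG1 of the members and SCD5 of the lists were too low to test. Figures were drawn with matplotlib 3.10.9.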

Additional observations from a re-analysis of the deposited data

Results flagged for a closer look

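In groups of 4 libraries, the highest or lowest CPM was set against Dixon's critical value of 0.829. It was passed in 8 of 128 groups of member values, where chance alone passes about 1 in 20. SCD was high in DMSO replicate 2 (924.7 CPM, the others at most 813) and in PRMT5i replicate 2 (499.3 CPM). DHCR7 was high in DMSO replicate 2 (84.3 CPM, the others at most 69.3). Among the EZH2i libraries FDFT1 was high in replicate 1 (608.5 CPM), ACLY low in replicate 2 (348.9 CPM) and FADS1 low in replicate 3 (94.5 CPM). ACSS2 was low in PRMT5i replicate 4 (38.95 CPM), and SREBF2 was high in combination replicate 3 (144.8 CPM). The flags fell in 7 different libraries.

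ACSL1 differed in its response to EZH2i with and without PRMT5i. The interaction was 0.63 on the log2 scale (edgeR quasi-likelihood test, adjusted p = 0.0151), with a fall with EZH2i alone (-0.33) and a rise on top of PRMT5i (0.31). The interaction did not pass without DMSO replicate 4, without PRMT5i replicate 2, 3 or 4, or without the filter on low counts. The rise on top of PRMT5i lost its call in 7 of the 16 fits that left out a library and without the filter. The fall with EZH2i alone lost its call in 3 of the 16, with scaling by total counts, without the filter, and in the fit to the 2 groups compared.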

How the results depend on the processing

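The count of members higher with EZH2i was 10 (1 in the fit to the 2 groups compared). With PRMT5i 1 was higher (3 with DESeq2, 3 without the filter, 3 with the GC offset), and in the combination against DMSO 2 were higher (4 with the GC offset). Against PRMT5i the combination had 5 higher and 0 lower (12 and 1 in the fit to the 2 groups, 9 higher with the GC offset). The interaction had 0 and 0 (1 higher with the GC offset, 1 lower with DESeq2). Leaving out each library in turn gave, for EZH2i against DMSO, 6 to 17 higher and 0 lower; for PRMT5i against DMSO, 1 to 4 higher and 11 to 17 lower; for the combination against DMSO, 2 to 5 higher and 7 to 8 lower; against PRMT5i, 2 to 6 higher and 0 to 1 lower (1 without DMSO replicate 1); against EZH2i, 0 to 1 higher and 12 to 19 lower; and 0 in the interaction. Where an arm then held fewer libraries, fewer samples carry the estimate. For the other changes the cause was not tested. Shares of all tested genes in the fits without a library are not given here, so these ranges describe the members only. The log2 fold change of STARD4 in the combination against EZH2i, -0.20, ranged from -0.39 to 0.054 when a library was left out, and reversed only without EZH2i replicate 4 (edgeR adjusted p = 0.909).

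Replicate numbers did not pair the libraries throughout. Deviations of same-numbered libraries of different groups correlated at -0.272 to 0.236 (median 0.0238, 9 of 24 pairs over 0.1). In 0 of 16 libraries did the best match in every other group carry the same number. Between PRMT5i and the combination, same-numbered libraries correlated at 0.206, 0.0258, 0.236 and 0.136 for replicates 1 to 4. With the replicate block 9 members were higher with EZH2i and 13 lower with PRMT5i. Scaling by total counts moved the median log2 fold change of all genes in the combination against DMSO to 0.13, with the members at 0.12 (-0.02 with TMM). With it the split of calls over all genes went from 681 higher and 578 lower to 855 and 289 for EZH2i against DMSO, from 2920 and 3070 to 3897 and 2021 for the combination against DMSO, and from 482 and 206 to 748 and 121 against PRMT5i. The GC offset gave 1318 and 1782 for EZH2i against DMSO, and 3571 and 3767 in place of 2824 and 3023 for PRMT5i against DMSO. It gave 3666 and 3934 for the combination against DMSO, 824 and 454 against PRMT5i, and 103 and 20 for the interaction. DESeq2 gave 85 and 27 in place of 42 and 6 for the interaction. Among the members only ABCG1 had too few counts to be tested.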
